A study of Mus musculus with 2 samples.

Results

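The 10 genes described here encode the invariant chains of the T cell receptor complex (Cd3d, Cd3e, Cd3g and Cd247), its co-receptors (Cd4, Cd8a and Cd8b1), and a set of genes that mark T cells or a T cell lineage (Trgv1, Sox13 and Thy1). They were taken by gene symbol from the array's platform annotation and are 10 of the 19937 genes that had a value. Each was represented by 1 probe set, the group of probes that the array summarises into 1 value, and each of these probe sets was annotated to that gene alone. The genes bear on how much T cell RNA the sorted cells held and on which T cell lineages contributed to it.

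RNA of cells labelled as TR1, regulatory T cells that make IL-10, was measured on 2 arrays, 1 per genotype. The impaired sample came from mice labelled CD4-DNIL-10R transgenic, a transgene named for a dominant-negative IL-10 receptor placed under Cd4 control so that it acts in T cells. The wildtype sample came from mice labelled wildtype, which keep a functional IL-10 receptor. In both, cells of the small intestine were collected after 2 intraperitoneal doses of 15 μg anti-CD3 antibody, clone 2C11, either 4 or 48 hours after the last dose, and the labels do not say which time belongs to which sample. Mouse strain, age, number of animals and the sort are not given in the labels. Values are log2 RMA expression, a background-corrected and between-array normalised brightness, and a difference is impaired minus wildtype on the log2 scale. With 1 array per genotype there was no spread between replicates, so no difference was tested and none carries an error. A rule of size, a 2-fold difference (1.0 on the log2 scale), stood in for a call. A floor of 6.91, the middle value of the probe sets' mean levels, separated dim genes from the rest, and 11124 genes passed it on their brighter array.

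The T cell receptor recognises antigen through its alpha and beta chains, or its gamma and delta chains, but cannot signal by itself. The CD3 gamma, delta and epsilon chains and the CD247 (zeta) dimer carry the tyrosine motifs that relay the signal, and all T cells need them to bring the receptor to the surface. CD4 and CD8 bind MHC class II and class I beside the receptor and bring the kinase LCK to it, so that their presence separates the helper and cytotoxic lineages. In the gut epithelium many T cells carry CD8 as an alpha-alpha homodimer without the beta chain, among them gamma-delta T cells and some CD4 T cells. The antibody given to the mice, 2C11, binds the epsilon chain.

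Several of the genes lie in clusters, and the upstream sequences of the 3 clustered CD3 genes and of Cd8a are shown. A link between these sequences and the differences between the arrays was not tested. In RefSeq's annotation of GRCm38.p6, Cd3g, Cd3d and Cd3e are adjacent on chromosome 9, and Cd8b1 and Cd8a are adjacent on chromosome 6. Promoter sequences from RefSeq were found for 6 of the 10 members: Cd3d, Cd3e, Cd3g, Cd247, Cd8a and Sox13. The stretch from 200 to 53 bases before the transcript start is printed 5′ to 3′ on the strand of the gene. It is chr9:44981586-44981733 (plus strand) for Cd3d, chr9:45009664-45009811 (minus strand) for Cd3e, chr9:44980484-44980631 (minus strand) for Cd3g and chr6:71373227-71373374 (plus strand) for Cd8a, all in GRCm38.p6. Capitals mark 2 motifs, searched on both strands. They are CANNTG, the E-box bound by E proteins, which reads the same on both strands, and TGNGGT or its reverse complement. The latter is a loosened form of the core bound by RUNX factors. It allows any base at the third place, so a match need not be a RUNX core.
Cd3d: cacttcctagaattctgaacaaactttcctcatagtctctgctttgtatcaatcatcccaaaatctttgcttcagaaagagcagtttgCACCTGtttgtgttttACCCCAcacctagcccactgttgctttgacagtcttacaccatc
Cd3e: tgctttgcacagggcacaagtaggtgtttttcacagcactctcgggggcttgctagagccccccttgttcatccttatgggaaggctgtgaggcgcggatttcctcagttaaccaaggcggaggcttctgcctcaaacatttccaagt
Cd3g: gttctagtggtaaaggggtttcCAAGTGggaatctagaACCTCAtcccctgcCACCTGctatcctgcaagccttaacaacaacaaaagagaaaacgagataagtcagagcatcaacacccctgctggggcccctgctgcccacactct
Cd8a: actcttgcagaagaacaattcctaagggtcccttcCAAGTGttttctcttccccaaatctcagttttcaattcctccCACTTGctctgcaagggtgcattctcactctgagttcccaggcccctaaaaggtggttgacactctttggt
The Cd3d stretch held 1 E-box and 1 TGNGGT match (ACCCCA), and that of Cd3g 2 E-boxes and 1 TGNGGT match (ACCTCA). That of Cd8a held 2 E-boxes and 0 TGNGGT matches. The Cd3e stretch held 0 of both. Over the same stretch of all 32851 promoter windows in the RefSeq table, 48.6% held an E-box and 26.5% a TGNGGT match. These matches describe the letters of the windows only.

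Of the CD3 chains, Cd3e and Cd247 were nearly equal on the arrays, and Cd3d and Cd3g were slightly lower in the impaired sample. Cd3e, the chain that the injected antibody binds (probe set 10593024), was at 13.57 in the impaired sample and 13.58 in the wildtype sample, differing by -0.006. Cd247, the zeta chain with the largest number of tyrosine motifs (probe set 10351353), was at 10.93 in the impaired sample and 10.95 in the wildtype sample, differing by -0.02. The brightness of these chains was thus almost the same on both arrays. Cd3d, which pairs with epsilon (probe set 10584821), was at 11.17 in the impaired sample and 11.32 in the wildtype sample, differing by -0.15. Cd3g, the other partner of epsilon (probe set 10593015), was at 13.48 in the impaired sample and 13.66 in the wildtype sample, differing by -0.19.

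All 4 CD3 differences were below 0, with a median of -0.09, against a median of 0.0025 over all genes past the floor, of which 49.5% were below 0. Genes of similar level had lower medians, -0.05 for Cd3d, -0.025 for Cd3e, -0.02 for Cd3g and -0.05 for Cd247. Cd3e and Cd247 lay above these medians, and Cd3d and Cd3g below. The spread among the 4 CD3 differences was 0.18 from the lowest to the highest. Cd3d and Cd3g start next to each other and are transcribed in opposite directions, and they were the lower 2 of the 4. The signs of Cd3e and Cd247 depended on the scaling: after centring on an intensity-dependent loess curve they were 0.02 and 0.04, while Cd3d and Cd3g stayed at -0.09 and -0.16.

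Of the co-receptors, Cd4 and Cd8b1 lay close to the CD3 chains and Cd8a did not. Cd4, the helper co-receptor (probe set 10547894), was at 13.18 in the impaired sample and 13.14 in the wildtype sample, differing by 0.04. Cd8b1, the CD8 beta chain found on conventional cytotoxic T cells (probe set 10538979), was at 9.72 in the impaired sample and 9.80 in the wildtype sample, differing by -0.09. Both lay close to the CD3 median, 0.13 above it for Cd4 and -0.003 relative to it for Cd8b1.

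Cd8a, the CD8 alpha chain of both the alpha-beta heterodimer and the alpha-alpha homodimer (probe set 10538993), was the member with the lowest difference. It was at 11.42 in the impaired sample and 12.12 in the wildtype sample, differing by -0.70, or 1.62-fold dimmer in the impaired sample. It ranked 74 from the lowest among the 11124 genes past the floor. Of 636 other genes whose mean level lay within 0.5 of that of Cd8a, 1 had a difference as low, Rps13 at -0.79, a ribosomal protein gene named after its value was seen, and 13 differed by as much in the other direction. Relative to the CD3 median the Cd8a difference was -0.61, relative to Cd4 it was -0.74, and relative to its partner chain Cd8b1 it was -0.61. These are differences between single probe sets of the same pair of arrays, whose error was not measured. In RNA from mixed cells, fewer cells of a type and less RNA per cell cannot be told apart.

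Of the 10 members, 0 differed by 2-fold, where 1.65% of all genes past the floor did so in either direction. At 1.5-fold (0.585 on the log2 scale) 1 member, Cd8a, was lower in the impaired sample and 0 were higher, against 1.5% of genes lower and 5.89% higher in the background. All 10 members passed the floor on both arrays. Their median difference was -0.05, with 3 above 0 and 7 below.

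**Figure D1:**
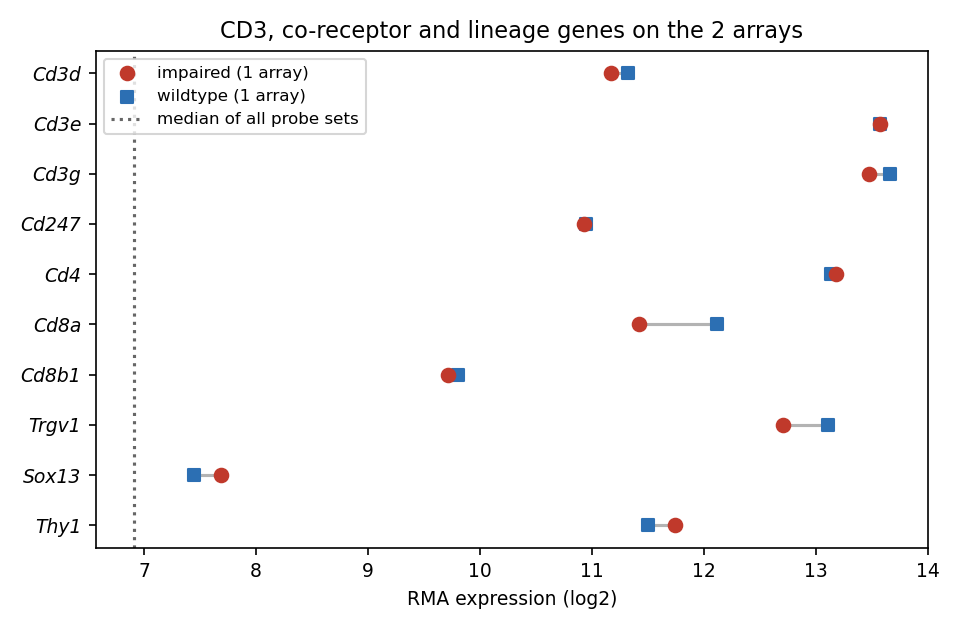
Log2 RMA expression (horizontal axis) of the 10 genes in the impaired sample (red circles) and the wildtype sample (blue squares), 1 array each, with the median of all probe sets as a dotted line. The symbols of Cd3e, Cd247, Cd4 and Cd8b1 nearly coincide, and those of Cd8a are farthest apart, at 11.42 (impaired) against 12.12 (wildtype). Levels of different genes come from different probes and are not comparable.

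The genes of the gamma-delta lineage went in opposite directions. Trgv1, a variable segment of the gamma chain locus (probe set 10403825), was at 12.71 in the impaired sample and 13.11 in the wildtype sample, differing by -0.40. Sox13, a transcription factor that directs gamma-delta T cells towards IL-17 production (probe set 10357790), was at 7.69 in the impaired sample and 7.45 in the wildtype sample, differing by 0.24. Rearranged gamma genes can also be transcribed in alpha-beta T cells, and Sox13 is expressed outside the T cell lineage, so neither counts gamma-delta T cells by itself.

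Trgv1 ranked 609 from the lowest difference among the 11124 genes past the floor. Among 176 genes within 0.5 of its mean level 1 was as low, Cst7 at -0.40, an inhibitor of granule proteases named after its value was seen, and 5 differed by as much in the other direction. Sox13 lay near the floor, and 29.9% of the 2535 genes near its level differed by as much or more in the same direction. The gamma locus was also read by 3 probe sets annotated to several variable segments, whose differences were -0.09, 0.02 and 0.24, so the lower value of Trgv1 was not shared by them. The delta locus segment Trdv2-2 was at 7.98 in the impaired sample and 8.004 in the wildtype sample, differing by -0.03.

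Thy1, the surface glycoprotein CD90 that mouse T cells carry and that fibroblasts and neurons also make (probe set 10584628), was at 11.74 in the impaired sample and 11.50 in the wildtype sample. Its difference of 0.24 was opposite in sign to those of the CD3 chains and 0.33 above their median. Among the 732 genes near its level, 7.38% differed by as much or more in the same direction. Of all 12 stromal and endothelial genes measured, 10 were above 0 and 2 below, with a median of 0.16. Of these 7 passed the floor, 4 of them on the impaired array alone, and of 6 measured genes of neurons and glia 0 passed it. The summed linear signal of the stromal list was 1.25 times as high in the impaired as in the wildtype sample. The part of stromal RNA in the Thy1 value was not tested.

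**Figure D2:**
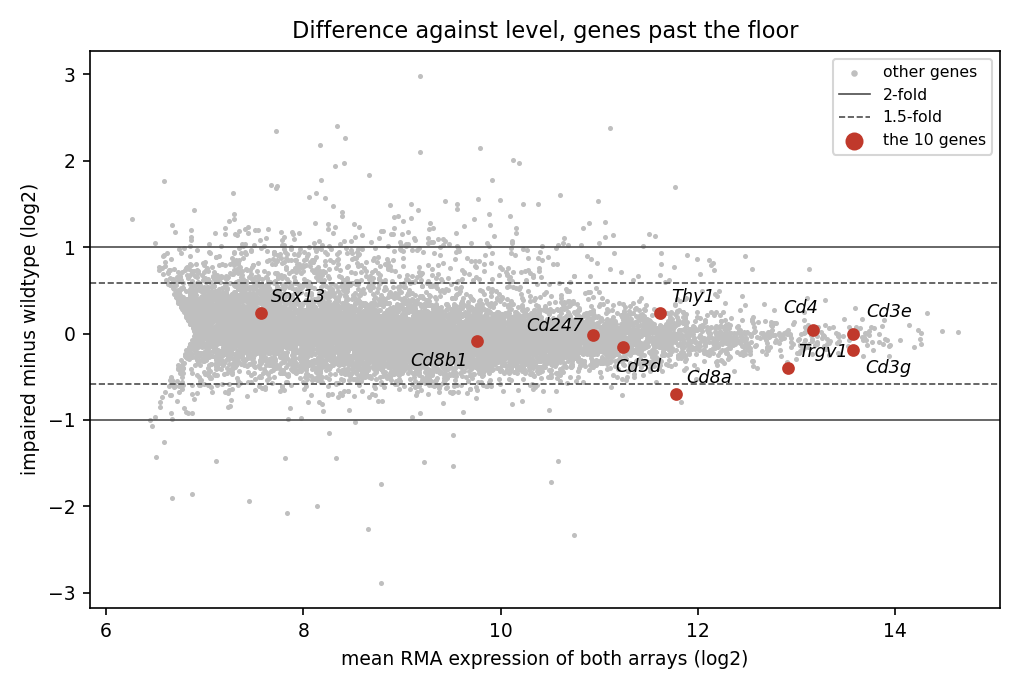
Difference between the arrays (impaired minus wildtype, log2, vertical axis) against the mean level of both (log2, horizontal axis) for the 11124 genes past the floor, with the 10 genes in red and lines at 1.5-fold and 2-fold. Cd8a at -0.70 lies below the 1.5-fold line, and Trgv1 at -0.40 lies at the lower edge of the genes of its level. The CD3 chains and Cd4 lie within the cloud, with Cd3g towards its lower side.

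Genes that act next to the receptor were measured to place the members in their pathway. Of 33 listed kinases, adaptors, phosphatases and partner receptors, 31 had a value and all 31 passed the floor. Their median difference was -0.02, with 15 above 0 and 16 below, and 0 passed 1.5-fold in either direction (background 7.39%). Lck, the kinase that CD4 and CD8 carry to the receptor, was not analysed here. Zap70, the kinase that docks on the phosphorylated CD3 and zeta chains, was at 11.96 in the impaired sample and 11.78 in the wildtype sample (difference 0.18). Lat, the membrane scaffold that ZAP70 phosphorylates, was at 12.21 in the impaired sample and 12.30 in the wildtype sample (difference -0.09).

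The largest differences of these signalling genes were small. Nck1, an adaptor that binds the epsilon chain, differed by -0.49. Tespa1, a signalling protein of thymocyte selection, differed by 0.29, and Txk, a TEC family kinase, by -0.29. Dgkz, a diacylglycerol kinase that dampens the signal, differed by 0.25, and Rasgrp1, which activates RAS in response to diacylglycerol, by 0.24.

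Variable genes of the receptor itself, found by symbol, varied more than the CD3 chains that carry them. Besides Trgv1, 8 such genes had a probe set of their own and passed the floor. Trav12-2, an alpha chain segment, was at 7.49 in the impaired sample and 8.46 in the wildtype sample, differing by -0.97. Brighter probe sets annotated to Trav12-2 among several segments differed less, by -0.63 and -0.09. Trav19 differed by -0.45, Trav7n-5 by -0.31 and Trbv1, a beta chain segment, by 0.29. A probe set annotated to both Trbv1 and Trbv13-2 differed by -1.60, opposite in sign. The 8 genes had a median of -0.11, with 3 above 0 and 5 below. Trav14-1, at -0.20, had a second, dimmer probe set that differed by 0.81, so the probe sets of this gene disagreed in sign. Variable segments have close paralogs, and the signal of a single segment is uncertain for that reason.

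Probe sets annotated to several variable genes, which name no gene by themselves, were described too, after their values were seen. With the 10 probe sets of individual genes, Trgv1 among them, they made up 39, all past the floor. Of these 13 were above 0 and 26 below, with a median of -0.09 against -0.02 over all 18176 probe sets past the floor. At 1.5-fold 6 of the 39 (15.4%) were dimmer in the impaired sample, where 4.8% of probe sets past the floor were, and 1 (2.56%) was brighter, where 4.94% were. The lowest was the probe set annotated to 2 beta chain segments, Trbv1 and Trbv13-2. It was at 8.63 in the impaired sample and 10.23 in the wildtype sample, a log2 difference of -1.60. Many of the 32 alpha chain probe sets are annotated to the same segments and overlap in what they read, so they are not independent.

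**Figure D3:**
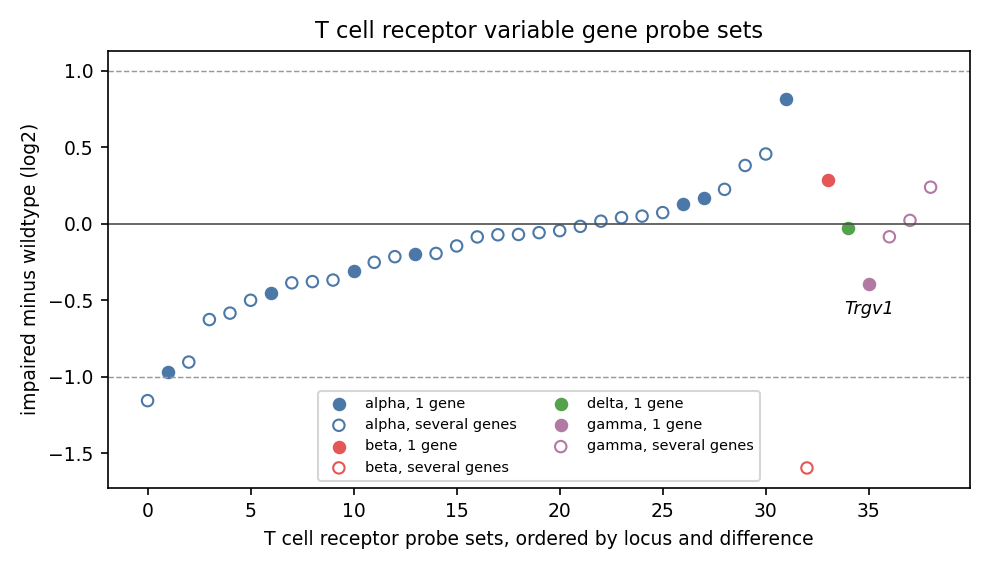
Differences (impaired minus wildtype, log2, vertical axis) of the 39 T cell receptor probe sets, ordered by locus and difference along the horizontal axis, with dashed lines at 2-fold. Filled circles stand for probe sets of 1 gene and open circles for those of several, and values run from -1.60 for an open beta chain circle to 0.81 for a filled alpha chain circle, with Trgv1 at -0.40.

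Lists of lineage genes were chosen with earlier results of these data known. Of 6 genes typical of CD4 T cells, all 6 passed the floor, 4 were above 0 and 2 below, and the median was 0.05. Zbtb7b, which encodes ThPOK, the factor that commits thymocytes to the CD4 lineage, was at 9.18 in the impaired sample and 8.77 in the wildtype sample (difference 0.41). Icos, a co-stimulatory receptor, differed by -0.22, and Cd40lg, the ligand by which helper cells activate B cells, by 0.20. Within this list 0 genes passed 1.5-fold, a count near the background share of 7.39%.

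Of 13 genes typical of CD8 and cytotoxic T cells, 6 were above 0 and 7 below, with a median of -0.11. Of the 12 that passed the floor 0 were past 1.5-fold, a count near the background share of 7.39%. Cd244a and Cd160, receptors of cytotoxic and intraepithelial lymphocytes, were both at -0.39. Cd160 was at 10.75 in the impaired sample and 11.13 in the wildtype sample. Gzma, a granule protease, differed by -0.26, and Nkg7, a granule protein, by -0.14. Runx3, which silences Cd4 and activates Cd8a in the CD8 lineage, was at 11.83 in the impaired sample and 11.73 in the wildtype sample, differing by 0.10. Klrc1, a lectin-like inhibitory receptor, was highest at 0.36. Eomes, which passed the floor on the impaired array alone, differed by 0.26, Crtam by 0.11 and Xcl1 by 0.10. The Cd8a difference of -0.70 was lower than that of every one of these 13 genes.

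Of the 20 symbols listed for gamma-delta T cells, 7 had a value from a probe set of their own, 5 above 0 and 2 below, with a median of 0.41. Below the floor lay 4 of the 7, and the median is the value of 1 of them, Blk. Also below it were Sox4 at 0.50, 5830411N06Rik at 0.02 and Cd163l1 at -0.08. Of the 3 that passed the floor 1, Il23r, was past 1.5-fold. Il23r, the IL-23 receptor also found on TH17 and innate lymphoid cells, was at 9.37 in the impaired sample and 8.79 in the wildtype sample, differing by 0.59. Zbtb16, which encodes PLZF, the factor of innate-like T cells, differed by 0.54, and Etv5 by -0.26. The 3 genes did not share a direction, as with Trgv1 and Sox13. The 5 genes used to recognise TR1 cells had a median of -0.02, from -0.20 for Prdm1 to 0.10 for Itga2. Il10 was at 12.92 in the impaired sample and 12.94 in the wildtype sample.

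**Figure D4:**
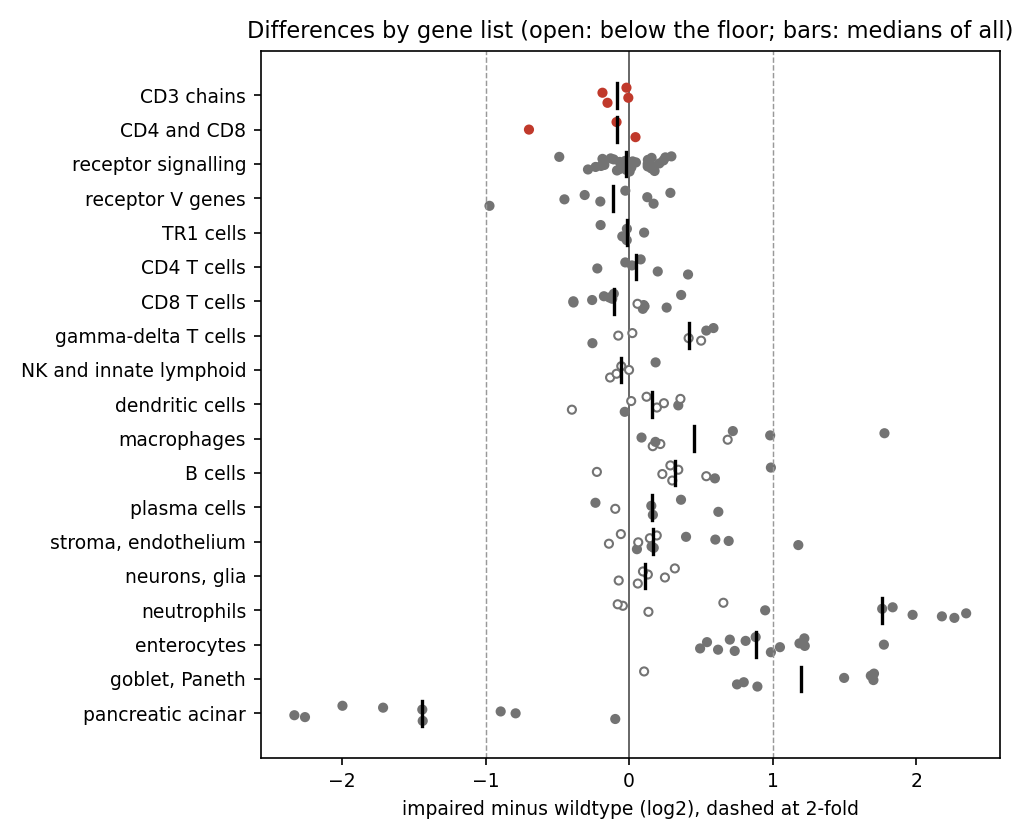
Differences (impaired minus wildtype, log2, horizontal axis) of all measured genes in each list, filled where past the floor and open where not, with a black bar at the list's median and dashed lines at 2-fold. The CD3 and co-receptor genes are red, with Cd8a at -0.70 apart from the other co-receptors. The medians of the gamma-delta T cell (0.41), enterocyte (0.88), goblet and Paneth (1.195) and neutrophil (1.76) lists lie right of 0 and that of the pancreatic list (-1.44) lies left. In the gamma-delta list 4 of the 7 genes lie below the floor, the median gene among them.

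Several lists of other cells had medians farther from 0 than any of the 10 genes. Each of 13 enterocyte genes had the higher value in the impaired sample (median 0.88), and 5 were 2-fold higher, as 1.46% of all genes past the floor were. Their summed linear signal was 1.77 times as high in the impaired as in the wildtype sample. Sis, the brush border sucrase-isomaltase, differed by 1.77, Alpi, intestinal alkaline phosphatase, by 1.22, and Slc5a1, the glucose transporter, by 1.22. All 8 measured goblet and Paneth cell genes were above 0, with a median of 1.195 and a summed signal 2.02 times as high in the impaired as in the wildtype sample, and 2 of them passed the floor on the impaired array alone. Of 11 neutrophil genes 9 were above 0 and 2 below, with a median of 1.76 and a summed signal 3.19 times as high in the impaired as in the wildtype sample. Of these 7 passed the floor, 3 of them on the impaired array alone. All 9 measured pancreatic acinar genes were dimmer, with a median of -1.44 and a summed signal 0.285 times that of the wildtype sample, and 6 were 2-fold lower, as 0.198% of all genes past the floor were. The part of these cells' RNA in the values of the 10 members was not tested.

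Many genes of other immune cells were below the floor, while others, such as Jchain and Igha of plasma cells, were well above it. Of 8 dendritic cell genes 2 passed the floor, Xcr1 at -0.03 and Itgax at 0.34, while Clec9a, Flt3 and Zbtb46, which define conventional dendritic cells, were below it on both arrays. Of 5 measured natural killer and innate lymphoid cell genes 1 passed it, Kit at 0.18, and Ncr1, the receptor NKp46, was below it on both arrays at 5.21 in the impaired sample and 5.35 in the wildtype sample. Of 8 macrophage genes 5 passed it, 2 of them on the impaired array alone. All 8 were above 0, with a median of 0.45 and Lyz2, a lysozyme that neutrophils also make, highest at 1.78, and the summed signal of the list was 1.37 times as high in the impaired as in the wildtype sample. Of 8 measured B cell genes 2 passed it, Blnk at 0.99 and Cd79b at 0.60, and the median of all 8 was 0.32. Of 6 measured plasma cell genes 5 passed the floor, 1 of them on the impaired array alone, and the median of all 6 was 0.16. Jchain was at 10.17 in the impaired sample and 10.005 in the wildtype sample. Igha was at 9.63 in the impaired sample and 9.87 in the wildtype sample, and Mzb1 was below the floor on both arrays. The defining B cell genes Ms4a1 and Pax5 were below the floor on both arrays. The part of macrophages in the Cd4 value and of dendritic cells in the Cd8a value was not tested.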

How the data were processed

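RNA of 2 samples, 1 per genotype, was measured on biotin-labelled Affymetrix arrays, per the labels' protocols. The deposited log2 values were made by the authors with affy and RMA, per the submitters' processing notes; their versions and the genome build were not given in the sources used here. They ranged from 3.84 to 14.66 in the impaired sample and from 3.86 to 14.63 in the wildtype sample, with medians of 6.92 (impaired) and 6.89 (wildtype). RMA compresses differences of dim probe sets, and no detection calls or scanner files were used here.

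The platform annotation gave 1 symbol for 21640 of the 34760 probe sets and several for 1321, and did not list 11799. Entrez identifiers tied 21553 of the first to RefSeq of GRCm38.p6, with 0 symbols updated. Where a gene had more than 1 probe set the brightest by the mean over the arrays stood for it. No test was possible, so differences were taken as they stand and the script was tested on simulated data. The members and lists were chosen with earlier results of these data known. All 10 members were named, and from each list the genes with the largest absolute difference, up to 5 for signalling and receptor genes and 3 otherwise. Lck, Zap70, Lat and any gene past the floor of the CD4, CD8 and gamma-delta lists could also be named. Exceptions, such as Il10, Trdv2-2, Jchain, the dim markers and the genes near Cd8a and Trgv1, were named after their values were seen. Alternatives were loess centring (fraction 0.3), a linear offset of 32, averaging a gene's probe sets, centring on the median of all genes, other floors, a 1.5-fold rule and Cd3e in place of the CD3 median. Values were computed in Python 3.11.15 with pandas 2.3.3, numpy 2.4.6 and, for loess, statsmodels 0.14.6. Precision is limited by having 1 array per genotype.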

Additional observations from a re-analysis of the deposited data

How the results depend on the processing

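The scaled median absolute deviation of all genes' differences was 0.25, and 0 differences past 1.5-fold changed sign. Of 52 values under alternative settings, some of which could not move, 51 moved by less than 0.25 or kept their count. The exception was the number of members past the size rule, which was 0 at 2-fold and 1 (Cd8a) at 1.5-fold. It stayed 0 with no floor, with a floor of 8.86 (the 75th percentile), after loess centring and with the linear offset. The Cd8a difference lay between -0.70 and -0.65 and, relative to the CD3 chains, between -0.69 and -0.61. The median of the 4 CD3 chains lay between -0.09 and -0.04. The signs of Cd3e, of Cd247 and of Cd8b1 relative to the CD3 chains turned with loess centring, all at sizes under 0.05. Averaging probe sets left every member as it was, since each has 1. A changed floor could not raise a count of 0 with every member already past it. Centring on the median of all genes could move the CD3 median only by that median, 0.0025. The 51 of 52 is therefore not a count of independent checks. No paired analysis was possible because each genotype has 1 array and the labels give no replicate numbers. Background correction and normalization by the authors could not be varied, and with 1 array per genotype no setting can show how the differences compare with the spread between mice.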
